A study of Rattus norvegicus and Mus musculus with 18 samples.

Results

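MHC class II molecules and the genes that mark Langerhans cells, the antigen-presenting cells of the epidermis, were followed in healing mouse skin. The 10 genes were chosen by symbol: H2-Aa, H2-Ab1, H2-Eb1, Cd74, H2-DMa, H2-DMb1, Ciita, Cd86, Cd207 and Epcam. Each matched a single row among the 49548 genes of the mouse table. The comparison set 3 libraries of mouse wound epidermis against 3 libraries of mouse wound dermis, all from adult mice and all taken 1 day after the scab fell off. The design text says that mice regenerate hair follicles at this time. The sources used here name no strain, sex or exact age, and do not say whether the replicates are separate animals. The p-values therefore measure the spread between these libraries, which may be technical. The other 12 of the series' 18 libraries are from rat, and their identifiers were not matched to gene names, so they were not analysed here.

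Class II molecules display peptides from the endocytic pathway to CD4 T cells. An alpha and a beta chain pair with the invariant chain Cd74, which guards the peptide groove until proteases trim it away. H2-DM then exchanges the remaining fragment for a peptide, and the transactivator Ciita switches on the whole set. In skin, Langerhans cells are the resident antigen-presenting cells of the epidermis and carry the lectin langerin, encoded by Cd207, while dermis holds macrophages and several kinds of dendritic cell. In mouse dermis some dendritic cells also carry langerin.

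Values are TPM, a share of each library's transcripts corrected for transcript length and scaled to the same sum, so that levels of different genes can be set side by side. Reads were 86 or 43 bases long per the labels' protocols, and reads of that length do not always tell near-identical genes apart. For the genes here this matters for the beta chain of H2-DM, which has a neighbouring copy, H2-DMb2. Their coding sequences, each 783 bases long, were identical at 751 positions (95.9%) in the GENCODE transcripts. The first 86 coding bases of both genes are shown because they differ at 1 position, in capitals.
H2-DMb1: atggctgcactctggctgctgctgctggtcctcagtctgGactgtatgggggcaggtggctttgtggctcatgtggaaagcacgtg
H2-DMb2: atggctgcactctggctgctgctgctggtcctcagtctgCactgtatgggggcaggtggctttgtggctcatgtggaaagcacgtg
The stretch of the same length with the most differences, 18 in all, lies at chr17:34155576-34155661 in H2-DMb1 and chr17:34147794-34147879 in H2-DMb2 (mm10, plus strand, coding exons), again with the differing bases in capitals.
H2-DMb1: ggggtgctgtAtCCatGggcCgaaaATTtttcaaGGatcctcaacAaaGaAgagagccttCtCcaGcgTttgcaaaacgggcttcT
H2-DMb2: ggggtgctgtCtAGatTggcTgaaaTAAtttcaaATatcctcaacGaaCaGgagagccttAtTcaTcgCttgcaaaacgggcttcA
Of the distinct stretches of 43 bases in H2-DMb1 transcripts, 25.4% also occurred in H2-DMb2 transcripts, and of those of 86 bases 13.9% did. A read from such a stretch could not be placed by sequence alone, so the split between both genes is uncertain.

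The other members were less exposed to shared sequence. Exons of H2-DMa overlapped Brd2 on the opposite strand over 360 bases, and exons of Ciita overlapped Dexi, also on the opposite strand, over 329. Without strand information, reads from such bases cannot be told apart. H2-Ab1, Cd207, Cd86 and Epcam shared no stretch of 43 bases with another gene.

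Of the 10 members, 8 were lower in wound epidermis, Epcam was higher and Cd207 did not pass the test. Over the 15982 genes tested, 56.3% passed, 39.3% lower and 17.0% higher in epidermis (limma on log2(TPM + 1), Benjamini-Hochberg adjusted over all genes, threshold 0.05). All 10 passed the filter of 1 TPM in at least 3 libraries. Of these, 9 reached 1 TPM in all 6 libraries, while Ciita passed through its dermis values and 1 epidermis library. The median log2 fold change of the members was -1.87, against -0.42 over all genes tested. The epidermis libraries of 8 members all lay below the dermis libraries, where 45.3% of all tested genes did so, and those of Epcam all lay above, where 20.8% did.

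**Figure D1:**
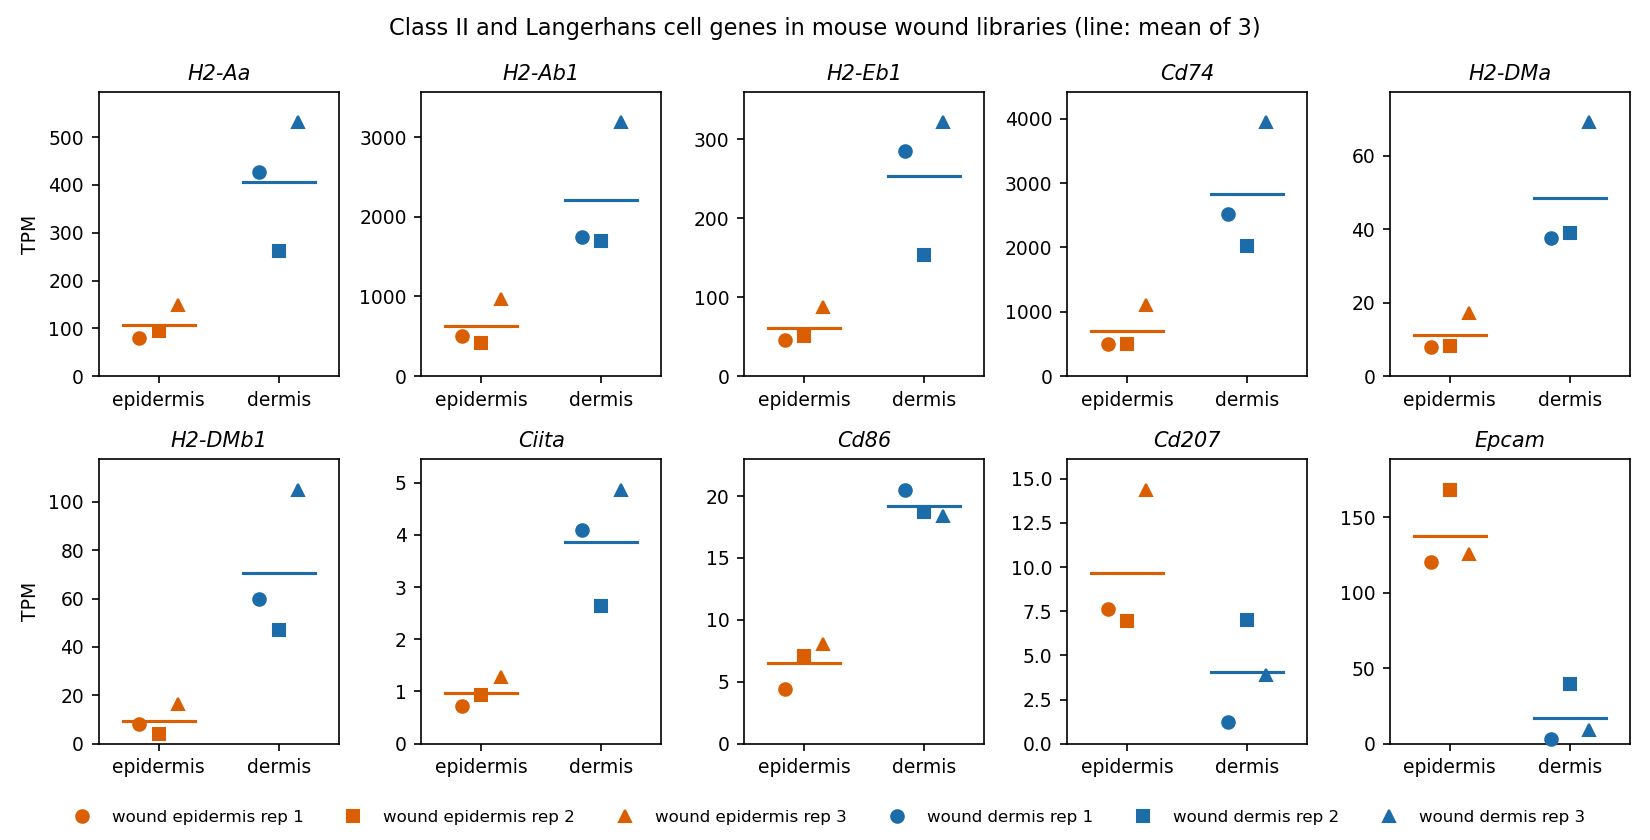
TPM of each member gene (vertical axis, linear, starting at 0) in the 3 wound epidermis and 3 wound dermis libraries of mouse; points are libraries, symbols give the replicate number and lines the group mean. The class II genes and Cd86 sit lower in all epidermis libraries, Epcam sits higher, and for Cd207 the epidermis value of 6.96 TPM lies just under the highest dermis value of 6.98 TPM.

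The classical chains form the molecule that is shown at the cell surface. H2-Ab1, the beta chain of the I-A molecule (chromosome 17, 34257689 to 34269419, mm10), was the most abundant of them, at 509.50, 415.67 and 973.92 TPM in wound epidermis and 1752.42, 1700.69 and 3184.66 TPM in wound dermis. No epidermis library reached the lowest dermis library, and the log2 fold change was -1.84 ± 0.40 (SE, limma adjusted p = 0.00697). H2-Aa, the alpha chain that pairs with it (chromosome 17, 34282744 to 34287823), stood at 80.21, 95.22 and 148.76 TPM in wound epidermis and 427.86, 262.05 and 530.78 TPM in wound dermis. Its epidermis mean was 26.6% of its dermis mean (log2 fold change -1.89 ± 0.34, adjusted p = 0.00319). H2-Eb1, the beta chain of the I-E molecule (chromosome 17, 34305867 to 34316674), stood at 46.05, 50.71 and 87.66 TPM in wound epidermis and 284.60, 153.95 and 321.25 TPM in wound dermis. It was lower in epidermis by a similar amount, with a log2 fold change of -2.02 ± 0.36 (adjusted p = 0.00314).

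The proportions of the 3 chains overlapped between tissues. H2-Ab1 made up 74.0% to 80.5% of their summed TPM in wound epidermis and 71.1% to 80.3% in wound dermis. The share of H2-Eb1 was the smallest in every library, 7.24% to 9.03% in epidermis and 7.27% to 11.5% in dermis.

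Cd74, the invariant chain that escorts class II through the cell (chromosome 18, 60803848 to 60812652), had the highest mean of the 10 genes in both tissues. It stood at 498.00, 502.70 and 1110.99 TPM in wound epidermis and 2524.11, 2016.66 and 3943.64 TPM in wound dermis. In dermis it ranked between 19th and 44th of all genes by TPM, and in epidermis between 117th and 316th. Its log2 fold change was -2.06 ± 0.41 (limma adjusted p = 0.00456). Within a library, the log2 ratio of Cd74 to the mean of the classical chains, each taken as TPM + 1, was 2.07 ± 0.15 in wound epidermis and 2.21 ± 0.12 in wound dermis (SD, n = 3 each), and the libraries overlapped. This difference had an exact two-sided permutation p of 0.2, or 0.28 adjusted over 7 such ratios. With 3 libraries against 3 the test cannot go below 0.10.

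H2-DM, the peptide exchange factor, was much less abundant than the molecules it acts on. H2-DMa, its alpha chain (chromosome 17, 34119541 to 34139101), stood at 7.90, 8.14 and 17.21 TPM in wound epidermis and 37.57, 38.83 and 69.05 TPM in wound dermis (log2 fold change -2.06 ± 0.37, limma adjusted p = 0.00298). H2-DMb1, its beta chain (chromosome 17, 34153072 to 34160230), stood at 8.11, 4.06 and 16.44 TPM in wound epidermis and 59.59, 47.07 and 104.87 TPM in wound dermis. Its epidermis mean as listed was 13.5% of its dermis mean, and the sum with its copy H2-DMb2 stood at 30.9% (log2 fold change of H2-DMb1 alone -2.86 ± 0.49, adjusted p = 0.00251). Relative to the classical chains, H2-DMb1 as listed was lower in all 3 epidermis libraries than in any dermis library, with a difference of -0.95 on the log2 scale. The exact permutation p was 0.1, the smallest that 3 against 3 allows, and 0.175 adjusted over 7 ratios. With both copies summed the difference turned to 0.25 and the tissues overlapped (exact two-sided permutation p = 0.2). The part of the read split between the copies in the lower ratio of H2-DMb1 alone was not tested. H2-DMa, by contrast, overlapped between tissues on that measure (difference -0.14, exact permutation p = 0.6).

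The copy H2-DMb2, whose sequence is shown above beside that of H2-DMb1, did not pass the test. It stood at 16.64, 17.93 and 28.72 TPM in wound epidermis and 16.65, 31.16 and 37.95 TPM in wound dermis, and the tissues overlapped (log2 fold change -0.39 ± 0.35, limma adjusted p = 0.383). In epidermis H2-DMb2 exceeded H2-DMb1 in all 3 libraries, and in dermis H2-DMb1 exceeded H2-DMb2 in all 3. The log2 ratio of H2-DMb1 to H2-DMb2 was -1.21 ± 0.61 in wound epidermis and 1.27 ± 0.62 in wound dermis (SD, n = 3 each, exact two-sided permutation p = 0.1); this ratio was chosen after the values were seen. Since reads can be shared between both copies, their sum is given too: 24.75, 21.99 and 45.16 TPM in wound epidermis against 76.24, 78.23 and 142.8 TPM in wound dermis. The sum did not overlap between tissues, and its epidermis share of 30.9% of the dermis mean lay close to the 24.3% to 28.6% of the classical chains.

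Ciita, the transactivator that class II transcription depends on (chromosome 16, 10480059 to 10528418), was the least abundant member. It stood at 0.73, 0.93 and 1.27 TPM in wound epidermis and 4.10, 2.63 and 4.86 TPM in wound dermis. Its epidermis mean was 25.3% of its dermis mean, within the range of 13.5% to 28.6% of the 7 class II members. The log2 fold change of -1.28 ± 0.24 (limma adjusted p = 0.00363) understates this, since 1 TPM was added to every value before the log was taken. Under quantile normalization it stood at -0.49 and did not pass (adjusted p = 0.143). In each tissue, replicate 3 held the highest value of all 7 class II members.

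**Figure D2:**
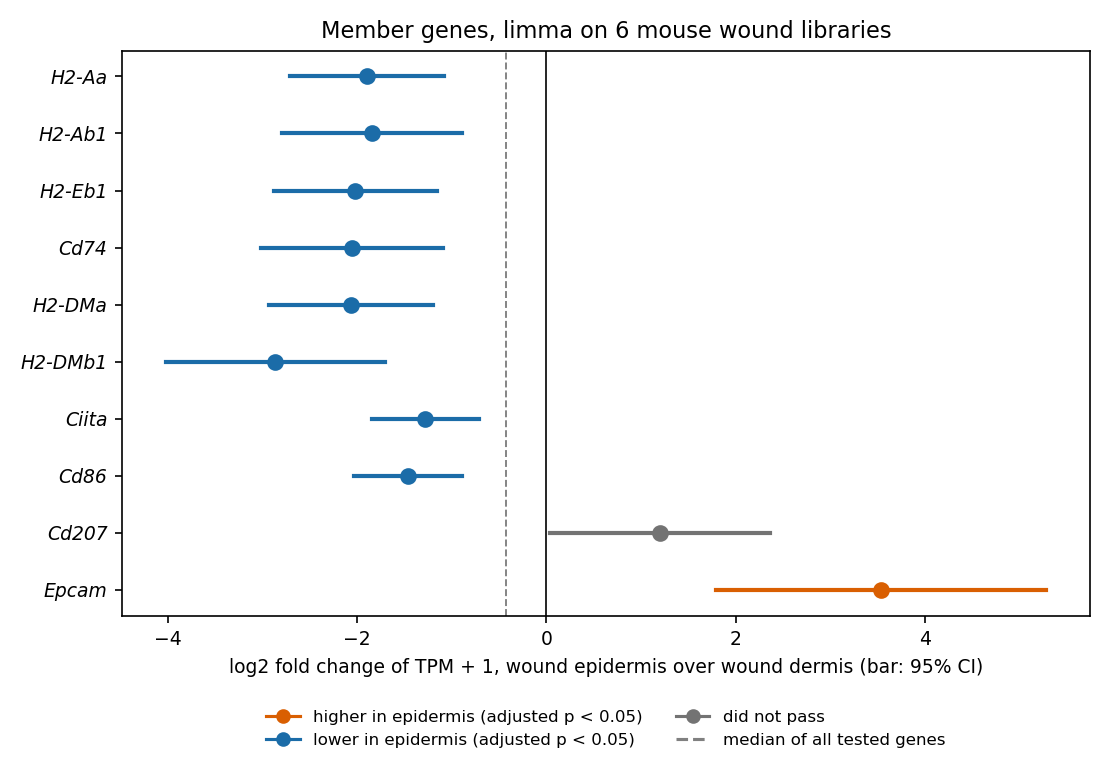
Log2 fold change of TPM + 1 in mouse wound epidermis over wound dermis for each member (points), with 95% confidence intervals from limma (bars, not adjusted for multiple tests); the dashed line is the median of all tested genes, -0.42. The intervals of the 7 class II genes and Cd86 lie below it, and that of Cd207 begins just above 0.

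Cd86, the ligand through which antigen-presenting cells costimulate T cells via Cd28 and Ctla4 (chromosome 16, 36603869 to 36666081), stood at 4.40, 7.04 and 8.02 TPM in wound epidermis and 20.49, 18.67 and 18.38 TPM in wound dermis. The dermis libraries lay close together, and every epidermis library was below them. The log2 fold change was -1.46 ± 0.24 (limma adjusted p = 0.00222). It stood at -0.96 under quantile normalization, still past the threshold. The epidermis level was 33.8% of the dermis level, the highest such share among the 8 lower members.

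Cd207, the langerin gene (chromosome 6, 83671215 to 83677857), went the other way in its means but not past the threshold. It stood at 7.62, 6.96 and 14.37 TPM in wound epidermis and 1.23, 6.98 and 3.90 TPM in wound dermis. The tissues overlapped by a single pair of libraries, epidermis replicate 2 and dermis replicate 2. The log2 fold change was 1.199 ± 0.49, with a 95% interval of 0.04 to 2.36 before adjustment (SE, limma adjusted p = 0.0732). Without wound dermis replicate 2 it was 1.62 (adjusted p = 0.0222). Scaling by median of ratios gave 1.58 (adjusted p = 0.019), and quantile normalization 1.84 (adjusted p = 0.0118). Its value without each other library was 0.70 to 1.38, with adjusted p from 0.094 to 0.196.

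Wound dermis replicate 2 was also the dermis library with the most keratinocyte transcripts. The 9 keratinocyte markers, among them Krt10 and Lor, stood there at a median of 26.4% of their epidermis mean (21.5% to 45.2%). The median was 8.83% in replicate 1, with a wide range (0.201% to 45.9%), and 1.17% in replicate 3 (0.433% to 3.59%). Dsg3 was higher in replicate 1 than in replicate 2, at 3.98 against 2.43 TPM. The summed level of the 9 markers was 43560.5 to 67585.5 TPM in wound epidermis, and 2398.5, 13604 and 461.86 TPM in wound dermis replicates 1, 2 and 3. No keratinocyte marker was at 0 in a dermis library. The part of these transcripts in the dermis level of Cd207 was not tested. The reverse direction was small: the 7 fibroblast markers stood in epidermis at 0.0345% to 0.498% of their dermis mean.

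Within a library, Cd207 stood far closer to class II in epidermis than in dermis. The log2 ratio of Cd207 to the mean of the classical chains was -3.93 ± 0.07 in wound epidermis and -7.05 ± 1.23 in wound dermis (SD, n = 3 each), with no overlap. The difference of 3.11 had an exact two-sided permutation p of 0.1, the smallest possible here (0.175 adjusted over 7 ratios). It stood at 2.60 without wound dermis replicate 1 and at 3.795 without replicate 2. The epidermis libraries were tightly grouped on this measure, at -3.86, -4.00 and -3.93. The shift was not particular to Cd207. Epcam moved further on the same measure, with a difference of 5.45 and no overlap (exact permutation p = 0.1, 0.175 adjusted). The classical chains fell, while the median log2 fold change over all genes tested was -0.42, so a gene at that median would also rise on this measure.

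Epcam, an adhesion protein found on Langerhans cells and also on epithelial cells (chromosome 17, 87635979 to 87651129), rose in wound epidermis. It stood at 120.23, 168.17 and 125.41 TPM in wound epidermis and 3.24, 39.55 and 8.74 TPM in wound dermis. The log2 fold change was 3.53 ± 0.74 (limma adjusted p = 0.00573), and 4.42 without wound dermis replicate 2, again its highest dermis library. The epidermis mean was 803% of the dermis mean, beside a median of 732% for the 9 keratinocyte markers. Epcam was more abundant than Cd207 in all 6 libraries. How much of it came from Langerhans cells and how much from keratinocytes cannot be told apart in whole tissue.

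Of the 8 tested genes on the list of its partners and epithelial adhesion proteins, 6 rose (17.0% of all tested genes did), with a list median of 3.07. They included Cldn1, a tight junction claudin, by 3.0 on the log2 scale, Cdh1, the E-cadherin that also tethers Langerhans cells to keratinocytes, by 3.14, and Spint2, a protease inhibitor, by 2.70. Cd44 stood at 0.24 and Cd9 at 0.56, and neither passed. Cldn7, a claudin that binds Epcam, did not exceed 1.63 TPM in any library.

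The genes that feed and cut class II peptides did not all move. Of 10 tested loading and editing partners, 4 fell (39.3% of all tested genes did), with a list median of -0.57. The proteases Lgmn and Ctss, which process Cd74, fell by 4.68 and 3.82 on the log2 scale. Ctss stood at 16.44, 16.99 and 28.24 TPM in wound epidermis and 331.34, 201.84 and 383.65 TPM in wound dermis, with no overlap. Ctsl, another cathepsin, did not pass: 112.56, 120.36 and 87.32 TPM in wound epidermis and 130.20, 85.21 and 138.42 TPM in wound dermis (log2 fold change -0.12, limma adjusted p = 0.698). Ifi30, the thiol reductase of the peptide-loading compartment, stood at 0.39 and did not pass either. March1, a ligase that removes class II from the surface of dendritic cells, and H2-Oa, which inhibits H2-DM, were the other lower genes. H2-Oa stood at 0.23, 0.26 and 0.07 TPM in wound epidermis and 3.25, 1.01 and 1.64 TPM in wound dermis, and so passed the filter through dermis only. The count of 4 lay near the share over all tested genes and is no result about this list. With a filter of 5 TPM the list had 2 lower genes, and 2 higher ones after scaling by median of ratios. H2-Oa lost its call under quantile normalization, at -0.38 (adjusted p = 0.403).

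Of the 7 factors tested that bind class II promoters together with Ciita, Rfx5 and Nfyb fell, by 1.09 and 1.27 on the log2 scale, and the list median was -0.10. Among all tested genes 39.3% were lower, so this count is no result about the list. Rfx5 missed the threshold without wound dermis replicate 3 (-0.93, adjusted p = 0.0525) and under quantile normalization (-0.33, adjusted p = 0.304). Rfxank stood at 0.39 and Creb1 at -0.27, and neither passed. Scaling by median of ratios brought Rfxank past the threshold (0.84, adjusted p = 0.0189), as did quantile normalization (0.81, adjusted p = 0.0258).

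Genes of the interferon gamma pathway, which induces Ciita, were lower in epidermis in 5 of 7 tested cases (list median -1.61), where 39.3% of all tested genes were lower. The transcription factor Irf1 fell by 3.05 on the log2 scale, the receptor chain Ifngr1 by 2.37 and the kinase Jak2 by 1.46. Jak1 and Ifngr2 did not pass. Interferon gamma itself, Ifng, was listed at 0 in 4 of the 6 libraries and did not exceed 0.24 TPM.

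Class I presentation, the parallel pathway that all nucleated cells use, was mixed. Of 9 tested genes 5 fell and Nlrc5, the class I counterpart of Ciita, rose (list median -0.70), beside 39.3% lower and 17.0% higher among all tested genes. Nlrc5 stood at 32.42, 36.37 and 36.00 TPM in wound epidermis and 11.36, 19.62 and 15.67 TPM in wound dermis (log2 fold change 1.15 ± 0.24, limma adjusted p = 0.00521). The immunoproteasome subunits Psmb8 and Psmb9 had log2 fold changes of -2.78 and -1.75, and the loading factor Tapbp of -1.36. The heavy chains H2-K1 and H2-D1 stood at 0.31 and 0.01 and did not pass. The number of lower genes on the list was 3 instead of 5 without wound epidermis replicate 1 or 2, without any of the 3 dermis replicates, with the replicate block, without a filter and when scaled by median of ratios.

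Of the 7 tested costimulatory partners of Cd86, 5 fell, where 39.3% of all tested genes did. The list median was -1.28, or -2.34 with 0.1 TPM added in place of 1. Cd83, a marker of mature dendritic cells, fell by 3.32 on the log2 scale and Icos by 1.56. Ctla4, a receptor of Cd86, fell by 1.28 (log2 fold change -2.60 with 0.1 TPM added). Icos, Ctla4 and Cd80, 3 of the 5, reached 1 TPM in dermis libraries only and so passed the filter through the tissue where they are high, which makes this count a description. Ctla4 lost its call under quantile normalization (-0.42, adjusted p = 0.125). Cd28, the activating receptor of Cd86, was below the filter, at 0.10, 0.03 and 0.14 TPM in wound epidermis and 2.02, 0.94 and 3.05 TPM in wound dermis. When any dermis library was left out and the filter was applied anew, 4 genes of this list were tested and 2 or 3 fell. Quantile normalization gave 3 lower and 1 higher.

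The cells that could carry class II differed between the tissues, and in whole tissue fewer cells of a type and less RNA per cell cannot be told apart. All 7 leukocyte markers fell, with a median of -3.03, and summed to 51.3 to 98.0 TPM in wound epidermis and 550.5 to 1026.4 TPM in wound dermis. In both tissues replicate 3 had the highest sum, as it had for class II. All 14 macrophage and monocyte markers fell, with a median of -4.21, and their sums were 67.0 to 76.8 TPM in epidermis and 1604.4 to 2982.2 TPM in dermis. Over all tested genes, 39.3% were lower. Of the 14, 7 reached 1 TPM in dermis libraries only and so passed the filter through the tissue where they are high, which makes this count a description. Lyz2, the lysozyme of macrophages, stood at 5.83, 1.01 and 2.62 TPM in wound epidermis and 1267.59, 691.74 and 1387.99 TPM in wound dermis. The macrophage mannose receptor Mrc1 was listed at 0, 0 and 0.04 TPM in epidermis, against 25.36 to 49.67 TPM in dermis. The part of these cells in the dermis level of class II was not tested.

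All 10 tested dendritic cell markers were lower in epidermis too, with a median of -2.15, beside 39.3% lower among all tested genes. Of the 10, 4 reached 1 TPM in dermis libraries only and so passed the filter through the tissue where they are high, which makes this count a description. Clec10a, Cd209a and Mgl2, lectins of dermal dendritic cells and macrophages, had log2 fold changes of -5.41, -5.05 and -4.63. The 3 untested markers were Irf4, Clec9a and Xcr1. Clec9a and Xcr1 mark the cross-presenting dendritic cells, and Xcr1 did not exceed 1.14 TPM in any library. Of the 20 Langerhans cell markers and growth factors 19 were tested, with 4 higher, 11 lower and a median of -1.09. Among all tested genes 17.0% were higher and 39.3% lower, so the count of higher genes is no result about this list. Those that rose were Cd24a, Epcam, Cdh1 and the chemokine Ccl20, genes that keratinocytes also express. Those that fell included Csf1r, the receptor that Langerhans cells need, by 2.60 and Tgfbr2 by 2.88, and both genes are also used by many dermal cells. The other lower genes were Cd1d1, Itgax, Id2, Runx3, Ahr, Tgfb1, Tgfbr1, Ccr7 and Mfge8. The part of other cell types in the changes on this list was not tested. When a dermis library was left out and the filter applied anew, 7 macrophage and 6 dendritic cell markers were tested, of which 7 and 4 to 6 fell. With the tested genes held fixed, 14 and 8 to 10 fell. A filter of 5 TPM left 5 dendritic cell markers, all lower.

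T cells and B cells were checked because B cells also carry class II. Of 7 tested T cell markers Trac, Cd4 and Thy1 fell, with a list median of -0.39, beside 39.3% lower among all tested genes, so the count is no result about T cells. Cd4 reached 1 TPM in dermis libraries only. Cd3g, a chain of the T cell receptor complex, stood at 6.17, 4.64 and 16.43 TPM in wound epidermis and 7.52, 7.17 and 11.77 TPM in wound dermis and did not pass. Of 5 B cell markers 2 were tested and 1, Cd79b, was lower (-2.83, or -5.45 with 0.1 TPM added). It too reached 1 TPM in dermis libraries only. Cd79a did not exceed 0.11 TPM, and Pax5 was listed at 0 throughout. All 5 endothelial markers (median -4.48) and all 7 fibroblast markers (median -9.88) fell, while 8 of 9 keratinocyte markers rose (median 3.67), as a description of the labelled tissues. The endothelial list had 1 tested gene when a dermis library was left out and the filter applied anew. The keratinocyte count was 5 without wound dermis replicate 1 and 6 to 9 without each other library. Of the endothelial markers 4, and of the fibroblast markers 2, reached 1 TPM in dermis libraries only. Lists of cells that are near absent from epidermis thus passed the filter partly or mostly through dermis, so their counts are a description.

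**Figure D3:**
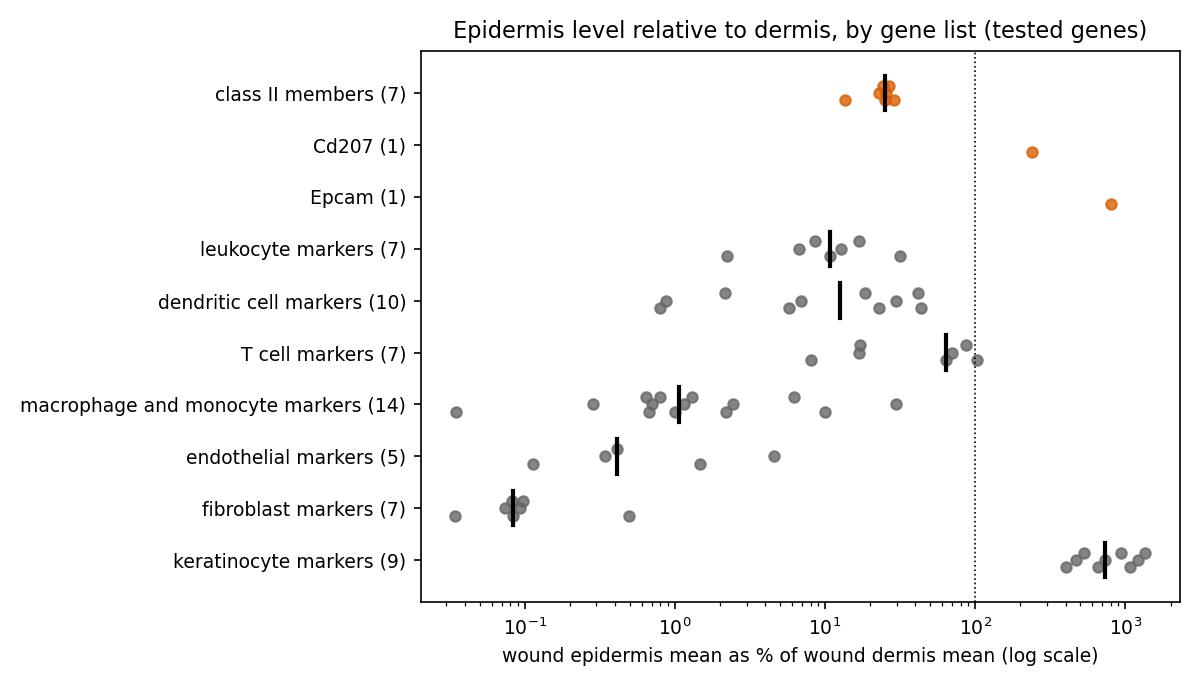
Mean TPM in mouse wound epidermis as a percentage of the mean in wound dermis (log scale) for the tested genes of each list; points are genes, black bars list medians, the number of genes is in parentheses and the dotted line marks equal levels. The 7 class II genes lie between 13.5% and 28.6%. The leukocyte markers have a median of 10.8%, the macrophage markers 1.07% and the T cell markers 64.3%.

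Levels of class II and of leukocyte markers were set side by side. The 7 class II members stood in epidermis at a median of 24.9% of their dermis mean. The leukocyte markers stood at 10.8%, the dendritic cell markers at 12.7% and the macrophage markers at 1.07%. Other immune lists stood above class II: the Langerhans cell markers and growth factors at 42.9%, the T cell markers at 64.3% and the 2 tested B cell markers at 75.8%. The lists overlapped, with leukocyte markers from 2.21% to 31.4% and dendritic cell markers from 0.79% to 43.8%. Divided by Ptprc, the pan-leukocyte phosphatase CD45, within each library, H2-Ab1 was 228.5, 159.9 and 206.8 in wound epidermis and 64.0, 85.5 and 116.4 in wound dermis. All epidermis libraries lay above all dermis libraries. The same held for Cd74, at 223.3, 193.3 and 235.9 in wound epidermis and 92.2, 101.3 and 144.2 in wound dermis.

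Ptprc itself stood at 2.23, 2.60 and 4.71 TPM in wound epidermis and 27.37, 19.90 and 27.35 TPM in wound dermis. Relative to it, 9 members were higher in every epidermis library than in any dermis library, and H2-DMb1 overlapped. With Tyrobp, a signalling adaptor of myeloid cells, as the divisor all 10 were higher in every epidermis library. The share of all tested genes that lay higher on these ratios was not computed. Ptprc and Tyrobp had log2 fold changes of -2.66 and -3.74, against a median of -0.42 over all genes tested. A gene at that median would also rise when divided by them, so these counts are no result about the members. Cd207 over Ptprc was 3.05 ± 0.37 in wound epidermis and 0.18 ± 0.16 in wound dermis (SD, n = 3 each). These divisors were chosen after the values were seen, and the ratios are given as a description with no test. They depend on the divisor: in epidermis Ptprc stood at 12.8% and Tyrobp at 6.74% of their dermis means. Cd52, another leukocyte marker, stood at 31.4%, above all 7 class II members (13.5% to 28.6%). No ratio to Cd52 was computed, so a higher level relative to leukocyte markers in general is not shown.

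**Figure D4:**
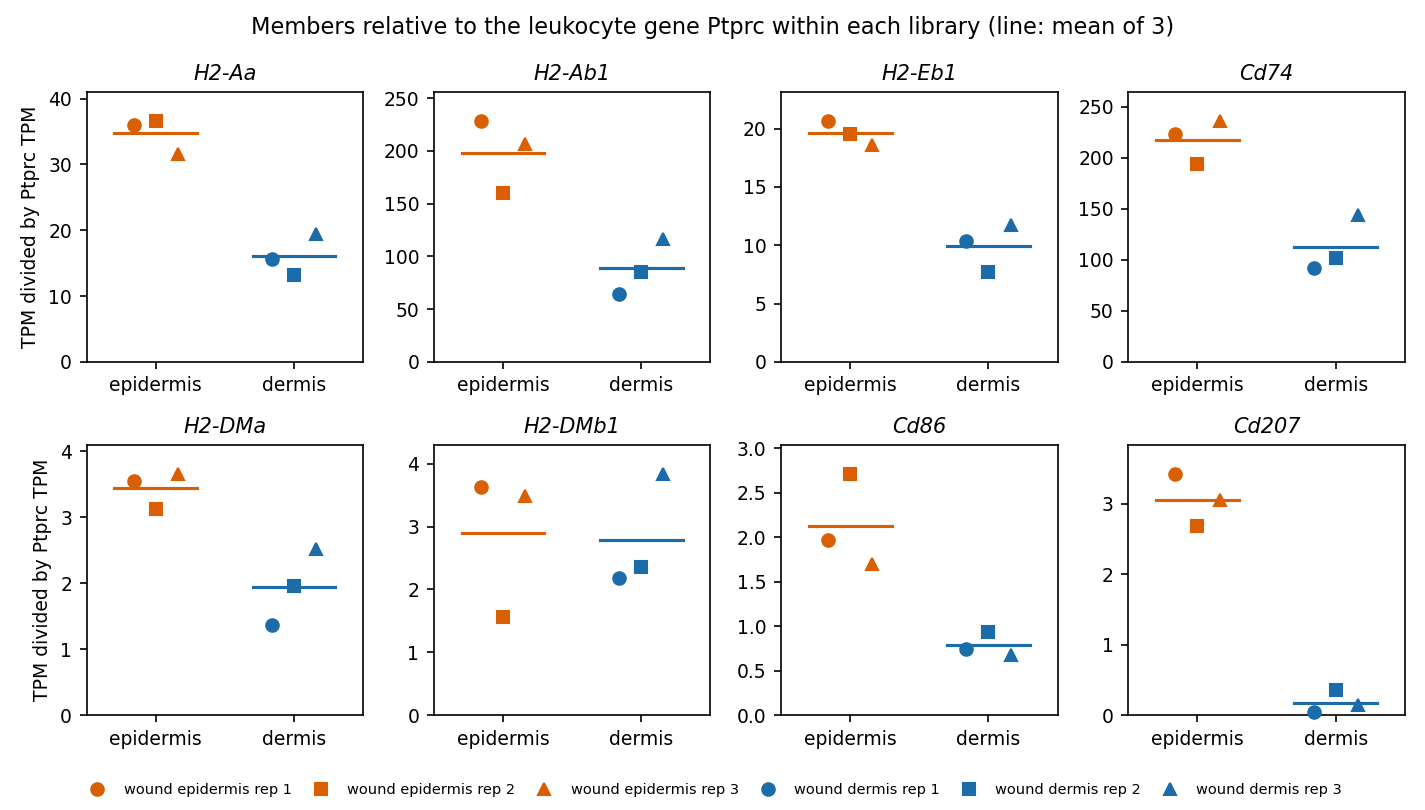
TPM of 8 members divided by the TPM of Ptprc in the same mouse library (linear axes starting at 0); points are libraries, symbols replicate numbers and lines group means. H2-DMb1 overlaps between tissues, and the other 7 sit higher in every wound epidermis library than in any wound dermis library, with Cd207 at 2.68 to 3.42 against 0.04 to 0.35.

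Genes with profiles most like the classical chains and Cd74 across the 6 libraries were Coro1a, Bnc2, Morf4l2, Nrg1 and Sec61b, with Pearson correlations of 0.999 to 0.995 on the log2 scale. They were chosen among 8395 named genes that averaged 10 TPM or more in either tissue, of which 1078 correlated above 0.95. Coro1a, a leukocyte actin-binding protein, stood at 3.54, 3.99 and 9.67 TPM in wound epidermis and 34.23, 20.38 and 48.15 TPM in wound dermis. The candidates share the same 6 libraries and many differ between the tissues, so no p is given. For Cd207 the closest were Rpl31-ps8, a ribosomal pseudogene, Fcgbp, Psmd14, Aimp2 and Rab1a, at 0.997 to 0.986. Of these Fcgbp had the profile with the widest range, at 25.21, 18.72 and 111.04 TPM in wound epidermis and 0.50, 18.33 and 4.63 TPM in wound dermis, and like Cd207 its highest dermis value was in replicate 2. Its log2 fold change of 2.82 (limma adjusted p = 0.0457) missed the threshold without any library except dermis replicate 2, at 1.89 to 3.31.

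The balance of directions moved with the scaling of the libraries. Higher calls made up 30.2% of all calls as reported, 47.2% when libraries were scaled by median of ratios and 52.8% with quantile normalization. The median log2 fold change over all genes was -0.42, -0.03 and 0.08 in these fits. The 7 class II members and Cd86 remained lower in all 3, with Ciita not past the threshold under quantile normalization. Actb was the most abundant gene in every library, at 35665 to 45349 TPM in epidermis and 109307 to 155846 TPM in dermis.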

How the data were processed

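SMART-seq2 libraries of total RNA were analysed from 3 mouse wound epidermis and 3 mouse wound dermis samples. The authors deposited TPM, computed per library. Bowtie 1.0.0, RSEM 1.2.31 and mm10 are named per the submitters' processing notes, and the sources used here give neither annotation nor settings. Per the labels' protocols, the RNA input was 10 ng (12 cycles of pre-amplification) or 100 ng (10 cycles), without saying for which library. TPM keeps no read depth, so the depth is unknown and no counting intervals are given.

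Symbols and mm10 positions came from GENCODE M21 by Ensembl identifier, and 49289 of 49548 genes matched. The test was limma 3.58.1 (R 4.3.3, mean-variance trend) on log2(TPM + 1), for genes that reached 1 TPM in 3 or more libraries. Ratios between members used an exact two-sided permutation test, adjusted over 7. Named genes were all 10 members, up to 4 genes with the smallest adjusted p and 1 of the other direction from each of 15 lists, and the 5 genes most correlated with each of 2 patterns; further list genes were named after their values were seen. The members and lists were chosen with earlier results of these data known. The fit and the permutation test were tested on simulated data. Alternatives were another pseudocount, other filters, scalings, a replicate block and leaving out each library. Deviations of same-numbered libraries correlated at -0.135, 0.0859 and 0.189, so the numbers were not treated as pairs. The rat table was not used. Some genes of the lists are not reported here.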

Additional observations from a re-analysis of the deposited data

How the results depend on the processing

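Of 189 alternative fits of single members, 184 kept direction and side of the threshold; Ciita lost its call under quantile normalization, and Cd207 gained a call in 4, under both other scalings and without wound dermis replicate 2, with the filter applied anew or the tested genes held fixed. Members called higher therefore numbered 2 under median-of-ratios scaling and quantile normalization, and 1 to 2 with a library left out. Over all genes, 4342 were higher under median-of-ratios scaling and 4694 under quantile normalization, against 2721. With a library left out, 3256 to 6406 genes were lower, against 6275, and 49 to 81 of the related genes, against 78; the lowest numbers came where a dermis library was left out and the filter, applied anew, tested fewer genes. Holding the tested genes fixed was chosen after seeing the data. Among named genes that passed no threshold, Creb1 turned to 0.12 under median-of-ratios scaling and 0.41 under quantile normalization, where Trdc turned to 0.46 and Rab1a to -0.0804; the cause was not tested. With the replicate block, 2464 genes were higher and 5940 lower, and member calls did not change. The labels link same-numbered libraries by number only, so whether they come from the same wound is not known. Of the 7 ratios to the classical chains, that of H2-DMb1 turned to 0.25 with H2-DMb2 added, an alternative chosen after seeing the data. The others kept their direction, but the Ciita ratio stood at 0.06 with a pseudocount of 0.1 TPM, against 0.64, and the H2-DMa ratio at -0.0169 without wound dermis replicate 2, against -0.14.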

Other observations

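Langerhans cells depend on Il34 from keratinocytes, which signals through Csf1r. Il34 stood at 8.36, 9.14 and 15.01 TPM in wound epidermis and 14.98, 22.33 and 14.45 TPM in wound dermis, and the tissues overlapped (log2 fold change -0.64, limma adjusted p = 0.0949). Ccl20, the chemokine that draws Langerhans cell precursors through Ccr6, stood at 3.31, 21.68 and 3.40 TPM in wound epidermis and was listed at 0 in 2 of 3 dermis libraries, with 2.0 TPM in replicate 2 (log2 fold change 2.39, adjusted p = 0.027). Ccr6 stood at 0.52, 0.64 and 2.98 TPM in wound epidermis and 2.70, 2.45 and 3.21 TPM in wound dermis and did not pass. Ccr7, the receptor of dendritic cells that leave for the lymph node, fell by 1.91 (adjusted p = 0.004). Ccl20, Ccr6, Ccr7 and Il34 were picked from the Langerhans cell list after their values were seen.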
